A study of Bos taurus with 64 samples.

Results

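The genes described here are PDK4, PFKFB3, SLC25A25, GPAM and PDPR, a group of 5 genes around the choice of fuel in muscle. They were chosen because they were listed as changed by pre-slaughter stress in the same animals, so the stress difference chose them and is given below as a description, with no test. Every probe that carried one of these gene names on the array was taken, which gave 6 probes of the 13285 on the array and 5 genes of the 5449 transcripts and probe sets. PDK4, PFKFB3, GPAM and PDPR had 1 named probe each and SLC25A25 had 2.

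Messenger RNA was measured in the longissimus thoracis (LT), a muscle that supports the trunk, and in the semitendinosus (ST), a hind limb muscle of locomotion, of 32 Normand cows, 64 arrays in all. The cows were 4.5 ± 0.1 years old and had been finished for 101 ± 3 days on a straw and concentrate ration with linseed and rapeseed lipids, which all of them received. Of these, 16 were slaughtered after limited stress, and 16 after a stress that combined transport alone with 30 minutes in a labyrinth on a farm new to them (called moderated stress in the sample labels). In each stress group 8 cows had the lipid-rich ration alone (control diet) and 8 had it with vitamin E and plant extracts rich in polyphenols (EP diet), which made 8 groups of 8 cows over both muscles, each cow a separate animal that gave both muscles.

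Muscle can burn glucose or fatty acids, and the pyruvate dehydrogenase complex of the mitochondria is the gate through which pyruvate from glucose enters oxidation. Pyruvate dehydrogenase kinases close this gate by phosphorylation and a phosphatase opens it again; PDK4 is the kinase that is known to rise in fasting, exercise and glucocorticoid exposure, and PDPR is the regulatory subunit of the phosphatase. PFKFB3 makes fructose 2,6-bisphosphate, a strong activator of glycolysis, SLC25A25 exchanges ATP-Mg for phosphate across the inner mitochondrial membrane in response to calcium, and GPAM is the mitochondrial acyltransferase that starts the synthesis of glycerolipids.

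The probes are shown because each value below is the binding of labelled RNA to one of these sequences, and because the array held further custom probe sets that overlapped some of them. Each probe is 60 bases long, and the sequences are those of the array files, 5′ to 3′. Capitals mark bases shared with a custom probe, which was measured apart from the named one. For PFKFB3 they mark only an overlap of 27 bases. The 33 bases shared with a further custom probe are not marked, so its lower case bases can be shared too. For the PDK4, PFKFB3 and GPAM probes and for the first SLC25A25 probe only the first 30 bases are printed.
PDK4, probe A_73_119171: tCCAGAAATTTCTGATTGTCCTTTGCTTTC
PDPR, probe A_73_111303: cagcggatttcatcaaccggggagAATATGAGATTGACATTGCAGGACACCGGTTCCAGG
PFKFB3, probe A_73_118246: AAGCTGTGCCAGCTTTCAAACGGAAAGcct
SLC25A25, probe A_73_116205: aactggaattggtgacaaagcaaattaaga
SLC25A25, probe A_73_116460: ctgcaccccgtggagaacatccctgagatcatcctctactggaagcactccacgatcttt
GPAM, probe A_73_120284: aaggaagtagcgtgaggtgtgtagaactag

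On the bovine build named in the files (HGSC Btau_3.1), the PDK4 probe lay at chr4:13136666-13136725 on the minus strand and began at base 3682 of transcript NM_001101883. The PFKFB3 probe lay at chr13:16109670-16109729 (minus strand, base 4286 of NM_001077837), the GPAM probe at chr26:33098618-33098677 (minus strand, base 5045 of NM_001012282) and the PDPR probe at chr18:1222236-1222295 (minus strand, base 2638 of NM_174781). The SLC25A25 probes lay on the plus strand of chromosome 11, the first at chr11:102312018-102312077, from base 3254 of NM_001038145, and the second at chr11:102305659-102306940, from base 476. The second one covered 1282 bases of the genome with its 60 bases, so its sequence crossed a gap in the genome that the transcript does not have. No exon or UTR annotation of this build was used, and the current RefSeq gene table gave the same symbol for all 5 accessions. The custom probe set that overlapped PDK4 (Target1250) shared 59 bases with the named probe, that of PFKFB3 (Target1385) shared 33 and 27 bases through a pair of probes, and that of PDPR (Target913) shared 36 bases. The other probes of each set had no such overlap of 25 bases or more. They are called custom probes of that gene below by their set name alone. No custom set overlapped the GPAM or SLC25A25 probes by 25 bases or more.

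Levels below are log2 signals relative to the 75th percentile of the same array, so that 0 is the signal of a spot at that percentile and 1 unit is a doubling. They depend on the probe as well as on the RNA, so no level is compared between genes. The 75th percentile lay between 2470 and 4202 signal units over the 64 arrays, and 71.4 to 80.9% of spots per array were well above background. All ST arrays were on slides and scan days that held no LT array, while every slide held cows of both stress groups. PDK4, PFKFB3, GPAM and both SLC25A25 probes were well above background on all 64 arrays, no member spot was set aside or saturated, and PDPR was well above background on 29 of 64 arrays only (12 LT and 17 ST).

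PDK4 was the member with the largest difference between stress groups, at about 10 times the signal in stressed cows of both muscles. In the LT its level ran from -3.76 to -0.049 with a median of -1.40 in the 16 limited stress cows, and from -0.34 to 2.95 with a median of 1.99 in the 16 stressed cows. In the ST it ran from -4.57 to -1.42 (median -2.78) in limited stress cows and from -1.81 to 3.17 (median 0.57) in stressed cows. The groups overlapped by a few cows, as 15 of 16 stressed cows lay above the highest limited stress cow in the LT and 14 did in the ST. In both muscles each of the 16 stressed cows exceeded the limited stress median. The mean difference was 3.39 (SE 0.33, 10.5-fold) in the LT and 3.36 (SE 0.33, 10.3-fold) in the ST. By size it was number 2 from the top among the 10441 probes tested for the LT and likewise among the 10305 tested for the ST. The probe above it in each muscle belonged to the custom set that overlapped PDK4, at 3.48 in the LT and 3.36 in the ST. Whole muscle was sampled, in which fewer cells of a type and less RNA per cell cannot be told apart.

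**Figure D1:**
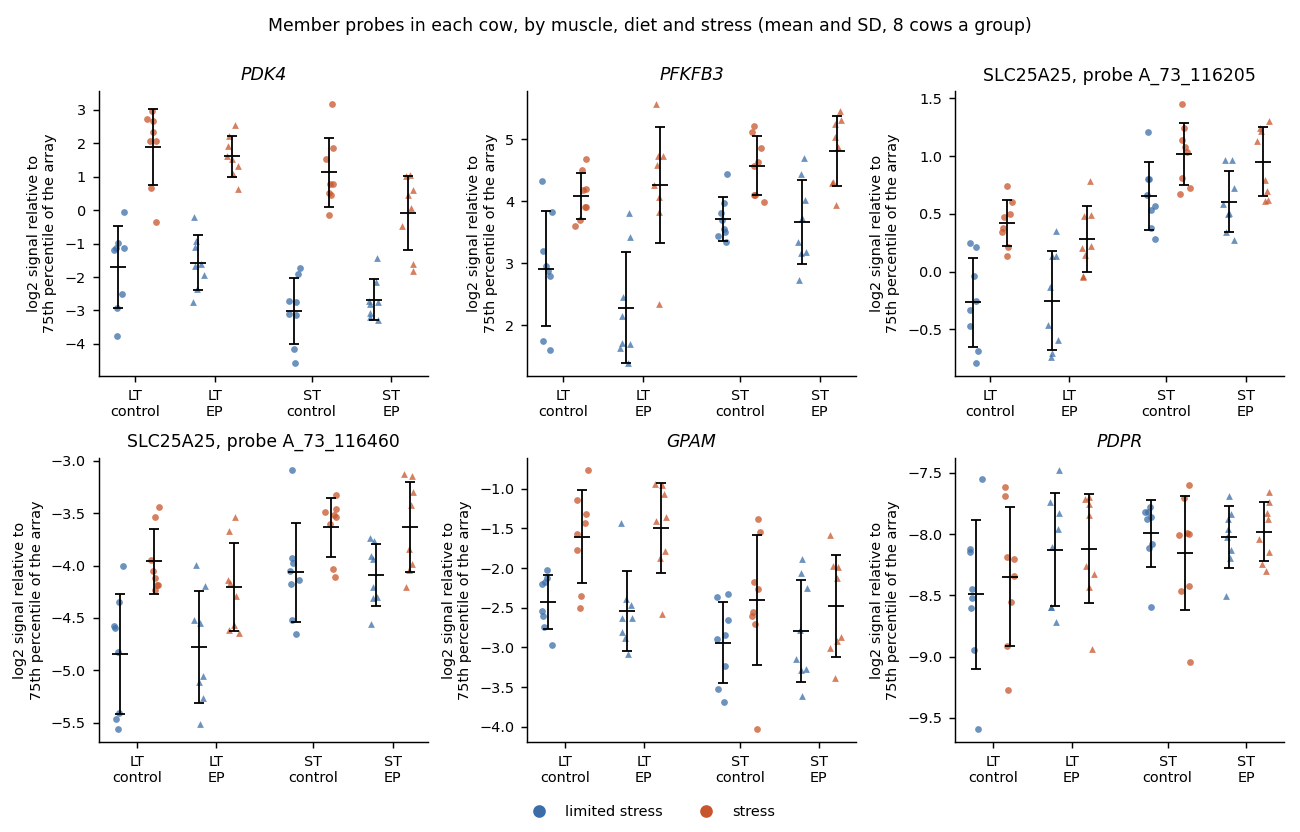
Level of each member probe in each cow, as log2 signal relative to the 75th percentile of the array (vertical axis), by muscle and diet (horizontal axis); blue is limited stress, orange is stress, circles are the control diet, triangles the EP diet, and bars give the mean and SD of 8 cows. The PDK4 groups of the 2 stress levels are almost separate in each muscle and diet, whereas those of PDPR lie over each other at about -8.

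The custom probe set over PDK4 gave nearly the same picture with 5 further probes, whose differences between stressed and limited stress cows lay between 3.07 and 3.48 in the LT and between 3.08 and 3.36 in the ST. Within the 4 slides that held LT arrays, the PDK4 difference ran from 2.67 to 4.46, and within the 5 slides that held ST arrays from 1.69 to 4.53, so that it was positive on every slide. The ST slide at 4.53 held only 1 stressed cow, and an ST slide at 3.76 held only 1 limited stress cow. The cows differed widely within a group, as the range over 16 cows was 3.72 in the LT and 3.16 in the ST of limited stress cows, and 3.29 and 4.98 in those of stressed cows.

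Over the 8 groups, the mean of PDK4 was 1.89 ± 1.15 (SD, n = 8 for each of these groups) in the LT of stressed cows on the control diet, and 1.61 ± 0.62 on the EP diet. It was 1.13 ± 1.03 in the ST of stressed cows on the control diet and -0.085 ± 1.12 on the EP diet. In the limited stress cows it was -1.71 ± 1.23 in the LT on the control diet and -1.57 ± 0.81 on the EP diet, and -3.01 ± 0.98 and -2.67 ± 0.62 in the ST. In this order of levels, neighbours differed by more than the mean spread of the groups only from the ST of stressed cows on the control diet to that on the EP diet, and from there to the LT of limited stress cows on the EP diet. The LT of limited stress cows and the ST of stressed cows were thus next to each other.

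PDPR, on the phosphatase side of the same switch, showed no such difference. In the LT its level ran from -9.60 to -7.48 (median -8.30) in limited stress cows and from -9.27 to -7.62 (median -8.23) in stressed cows. In the ST these ranges were -8.60 to -7.69 (median -7.92) and -9.04 to -7.60 (median -8.00). The groups overlapped almost fully, and 9 of 16 stressed cows exceeded the limited stress median in the LT and 6 did in the ST. The difference was 0.075 (SE 0.18, 95% interval -0.29 to 0.44) in the LT and -0.055 (SE 0.11, 95% interval -0.28 to 0.17) in the ST. Of the custom set that overlapped PDPR, 3 of 5 probes passed the filter on dim probes, and their differences lay between -0.036 and 0.24 in the LT and between -0.53 and 0.066 in the ST. PDPR was chosen as a gene listed for the LT, but no difference of its named probe was detectable at this signal strength.

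PFKFB3, the activator of glycolysis, was about 3 times higher in the LT of stressed cows and about 2 times higher in the ST. In the LT its level ran from 1.39 to 4.32 (median 2.62) in limited stress cows and from 2.34 to 5.56 (median 4.19) in stressed cows. In the ST it ran from 2.73 to 4.69 (median 3.63) and from 3.93 to 5.46 (median 4.74). These groups overlapped more than those of PDK4, with 6 (LT) and 8 (ST) of the 16 stressed cows above the highest limited stress cow, but 15 and 16 of them exceeded the limited stress median. The mean difference was 1.57 (SE 0.28, 2.98-fold) in the LT and 0.997 (SE 0.18, 2.00-fold) in the ST. The 5 custom probes of this gene gave 1.55 to 1.89 in the LT and 0.99 to 1.32 in the ST. Within slides the difference was positive throughout, from 0.91 to 2.40 in the LT and from 0.062 to 1.88 in the ST, the lowest value being that of an ST slide with a single stressed cow.

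SLC25A25, the ATP-Mg carrier, was higher in stressed cows by a smaller amount with both of its probes. With the first probe its level in the LT ran from -0.79 to 0.35 (median -0.29) in limited stress cows and from -0.048 to 0.78 (median 0.36) in stressed cows. In the ST it ran from 0.27 to 1.21 (median 0.58) and from 0.61 to 1.45 (median 1.06). Each of the 16 stressed cows exceeded the limited stress median in both muscles, and 8 of them lay above the highest limited stress cow in the LT and 5 did in the ST. The difference was 0.61 (SE 0.12, 1.53-fold) in the LT and 0.36 (SE 0.10, 1.28-fold) in the ST. Within slides it was positive throughout in the LT, and on the ST slide with a single stressed cow it was -0.12. The second probe, from the front of the transcript, was dimmer and gave 0.73 (SE 0.16) and 0.44 (SE 0.13), and 14 of 16 stressed cows exceeded the limited stress median in the ST. None of them exceeded the highest limited stress cow, a single cow at -3.09 that lay far from its group, while 6 of 16 limited stress cows lay below the lowest stressed cow (-4.20). By limma's test between slides, which 30.8% of LT probes and 2.79% of ST probes passed at an adjusted p under 0.1, the level differed between slides for this probe (adjusted p = 0.028 in the LT, 0.058 in the ST), for the first SLC25A25 probe in the LT (0.061) and for PDPR in the LT (0.030), and for no other member probe. The LT stress difference of the second SLC25A25 probe was between 0.45 and 1.44 within each of the 4 LT slides.

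GPAM, which starts glycerolipid synthesis, had a larger stress difference in the LT than in the ST, which was not tested because the LT comparison chose it. In the LT its level ran from -3.08 to -1.43 (median -2.58) in limited stress cows and from -2.58 to -0.77 (median -1.41) in stressed cows, and 15 of 16 stressed cows exceeded the limited stress median. In the ST it ran from -3.69 to -1.89 (median -2.87) and from -4.03 to -1.38 (median -2.40), so that the stressed cows covered the whole range of the limited stress cows, and 12 of 16 exceeded the limited stress median. The difference was 0.93 (SE 0.17, 1.91-fold) in the LT and 0.42 (SE 0.23, 1.34-fold, 95% interval -0.037 to 0.88) in the ST. In the ST it was negative on 1 of 5 slides (-0.56) and positive on the others, up to 1.35 on the slide with a single stressed cow.

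At an adjusted p under 0.1, the limma fit placed 5 of the 6 member probes among the probes higher in stressed cows in the LT, where 2.48% of all probes tested were, and 4 in the ST, where 1.59% were. The share of higher among all calls moved with the scaling, from 56.7% in the LT to 69.0% with arrays scaled to the median of their control features (control-feature scaling) and 71.2% unscaled, and from 37.6% in the ST to 88.3% and 91.5%. With the slide as a block it was 44.5% (LT) and 65.3% (ST). The counts of member probes, unlike these shares over all probes, follow from how the genes were chosen.

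The stress difference was then compared between the diets, which the choice of the genes did not use. For PDK4 in the ST it was 4.14 (SE 0.46) on the control diet and 2.59 (SE 0.46) on the EP diet. On the control diet the stressed and limited stress cows did not overlap in the ST, with a lowest stressed cow of -0.13 and a highest limited stress cow of -1.74, and on the EP diet 6 of 8 stressed cows lay above the highest limited stress cow (-1.42). The difference between diets was -1.55 (SE 0.65, 95% interval -2.88 to -0.22), in a fit without the slide. Over the 10305 probes of the limma fit it did not pass (adjusted p = 0.97). Stressed cows of both diets were spread unevenly over the ST slides, and some slides held stressed cows of the EP diet only. Diet and slide are thus partly mixed in this value. The 5 custom probes of PDK4 gave -1.39 on average (mean SE 0.64), and -1.33 (mean SE 0.78) with the slide as a block. In the LT the stress difference of PDK4 was 3.60 (SE 0.47) on the control diet and 3.18 (SE 0.47) on the EP diet, a difference of -0.42 (95% interval -1.78 to 0.94, adjusted p over 0.99 in limma). For PFKFB3 the difference between diets was 0.81 (95% interval -0.32 to 1.94) in the LT and 0.29 (95% interval -0.45 to 1.03) in the ST. For GPAM it was 0.23 (95% interval -0.48 to 0.94) and -0.23 (95% interval -1.15 to 0.69). SLC25A25 and PDPR had differences between diets from -0.31 to 0.21. In limma, 0 of 6 member probes passed in either muscle, beside 0% of all probes, where 276 LT and 491 ST probes had an unadjusted p under 0.05.

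**Figure D2:**
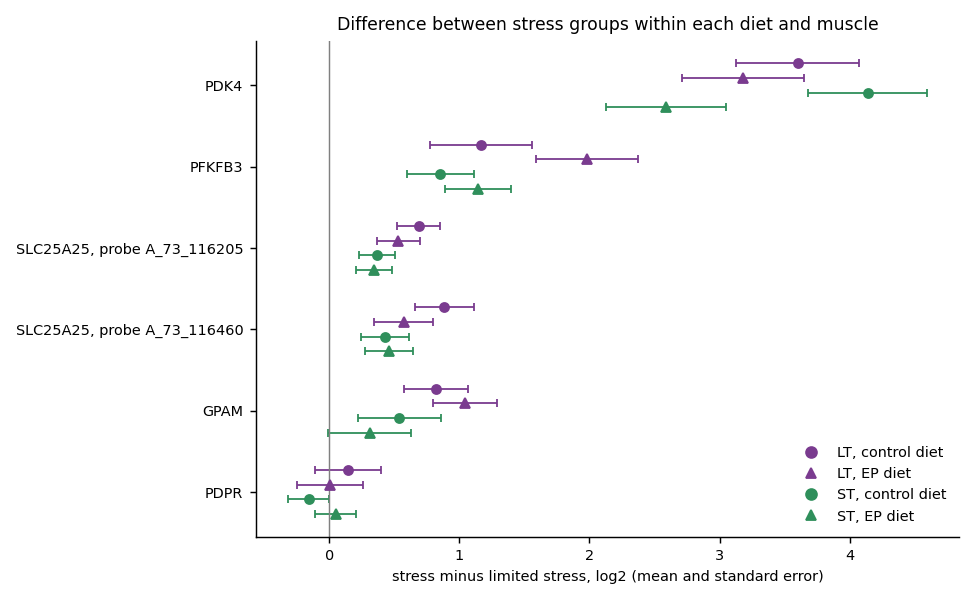
Difference between stressed and limited stress cows in log2 units (horizontal axis) for each member probe (vertical axis), within each muscle and diet, with standard errors from the limma fit and 8 cows on each side. PDK4 in the ST is at 4.14 on the control diet and at 2.59 on the EP diet, and PDPR lies near 0 in all 4 settings.

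The diet itself, averaged over the stress groups, moved no member past the threshold. The EP diet minus the control diet was -0.070 (95% interval -0.75 to 0.61) for PDK4 in the LT and -0.44 (95% interval -1.10 to 0.23) in the ST. It was -0.23 (95% interval -0.79 to 0.34) and 0.092 (95% interval -0.28 to 0.46) for PFKFB3, and -0.0037 (95% interval -0.36 to 0.35) and 0.039 (95% interval -0.42 to 0.50) for GPAM. The remaining probes lay between -0.086 and 0.30. In limma 0 of 6 member probes were called in either muscle, beside 0% of all probes, and 407 LT and 531 ST probes had an unadjusted p under 0.05. These intervals are wide, so changes of PDK4 of up to about 1 log2 unit cannot be told from none.

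PDK4 and GPAM were higher in the LT, and PFKFB3 and SLC25A25 were higher in the ST, under every scaling, filter and block that was tried. PDPR leaned to the ST wherever a value is given below, but passed the threshold under some settings only. PDK4 was higher in the LT in 29 of 32 cows, and the exceptions were 3 stressed cows on the control diet. The difference within a cow ran from -0.87 to 2.68 with a median of 1.42, and its mean was 1.22 (2.32-fold). In limma it had SE 0.24 and adjusted p = 2.0e-05, or SE 0.17 and adjusted p = 1.3e-08 with the cow as a block. Unless that block is named, the fits over both muscles did not pair the muscles of a cow. GPAM was higher in the LT in 28 of 32 cows, by -1.12 to 2.43 with a median of 0.64, and on average by 0.64 (SE 0.14, 1.56-fold; adjusted p = 1.9e-04 in limma). The LT arrays in this average also entered the stress comparison that chose GPAM. In limited stress cows alone GPAM was at 0.38 (adjusted p = 0.14 in limma, or 0.042 with the cow as a block).

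SLC25A25 was higher in the ST in all 32 cows with the first probe and in 28 of 32 with the second. With the first probe the LT minus ST difference ran from -1.56 to -0.070 (median -0.79), with a mean of -0.76 (SE 0.077; adjusted p = 2.2e-12 in limma), which is 1.69 times the signal in the ST. The second probe gave -0.59 (SE 0.11; adjusted p = 4.0e-06 in limma). PFKFB3 was higher in the ST in 27 of 32 cows, with differences from -3.00 to 0.31 (median -0.69) and a mean of -0.80 (SE 0.17, 1.74 times the signal in the ST; adjusted p = 6.4e-05 in limma). PDPR was higher in the ST in 23 of 32 cows, with a mean of -0.23 (SE 0.11; adjusted p = 0.064 in limma).

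In this comparison 6 of 6 member probes passed, 2 of them higher and 4 lower in the LT, beside 58.2% of all probes tested (26.6% higher and 31.6% lower), so that a passing probe is the common case. The split of all probes was 2726 higher and 3242 lower, against 3300 and 693 with control-feature scaling and 4322 and 1572 unscaled. The slide and the scan day could only be given as a random block, because no slide held both muscles. With the slide as that block, the adjusted p in limma was 1.4e-03 for PDK4, 3.0e-03 for PFKFB3, 6.4e-03 for GPAM, and 1.0e-08 and 2.0e-04 for the SLC25A25 probes. PDPR then had an adjusted p of 0.17 and did not pass. The 5 custom probes of PDK4 gave 1.01 to 1.19 and those of PFKFB3 -0.88 to -0.74. Muscle and slide cannot be told apart beyond what the block allows.

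**Figure D3:**
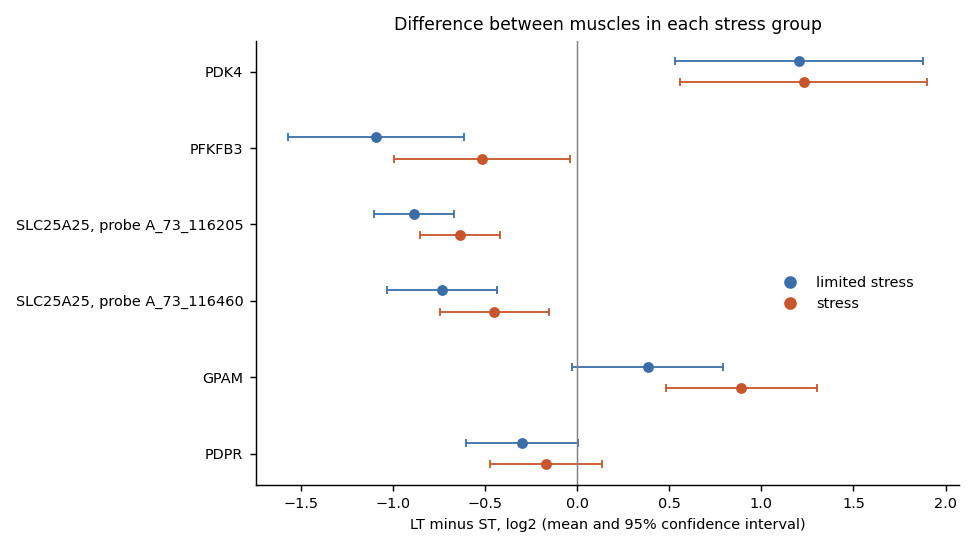
LT minus ST difference in log2 units (horizontal axis) for each member probe (vertical axis), in the 16 limited stress cows (blue) and the 16 stressed cows (orange), with 95% confidence intervals of the limma fit. PDK4 and GPAM lie to the right of 0, PFKFB3 and both SLC25A25 probes to the left.

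The differences between muscles were present in the limited stress cows, in which no stress difference enters. There PDK4 was higher in the LT in 16 of 16 cows by 1.20 (SE 0.34; adjusted p = 3.4e-03 in limma), and PFKFB3 was higher in the ST in 14 of 16 cows (-1.09, SE 0.24; adjusted p = 2.2e-04 in limma). The SLC25A25 probes gave -0.89 (SE 0.11) and -0.73 (SE 0.15), with adjusted p = 2.5e-09 and 7.8e-05 in limma. GPAM gave 0.38 (SE 0.20, 95% interval -0.026 to 0.79) and PDPR -0.30 (SE 0.15, 95% interval -0.60 to 0.0054), and neither passed (adjusted p = 0.14 and 0.12 in limma). With the cow as a block, which pairs the muscles, both passed (adjusted p = 0.042 for GPAM and 0.030 for PDPR in limma), with GPAM higher in the LT in 13 of 16 cows and PDPR higher in the ST in 12 of 16. Of all probes, 44.1% passed in these cows, and 57.8% with that block. In the stressed cows the difference of GPAM was 0.89 (SE 0.20), with 15 of 16 cows higher in the LT, and that of PFKFB3 was -0.51 (SE 0.24).

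Whether the stress difference itself differed between muscles could be tested only for PDK4 and PFKFB3, which had been listed in both muscles. For PDK4 the LT minus ST difference of the stress differences was 0.026 (95% interval -0.92 to 0.98) and for PFKFB3 0.58 (95% interval -0.098 to 1.25). In limma neither passed, with an adjusted p over 0.99 for both, and 0% of all probes did, with 278 probes at an unadjusted p under 0.05. Blocking on the cow, which pairs the muscles, 15 probes passed and no member was among them (adjusted p = 0.65 for PFKFB3). For GPAM and SLC25A25, chosen from the LT, the corresponding values of 0.51, 0.25 and 0.28 are a description.

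Within a stress group, the level in the LT was set against that in the ST of the same cow, as 10 relations over 16 cows each, with two-sided permutation tests and adjustment over the 10. For PDK4 the muscles varied together in limited stress cows, with Pearson's r = 0.76 (permutation p = 5.7e-04, adjusted 5.7e-03) and Spearman's rho = 0.70 (permutation p = 3.3e-03, adjusted 0.033). Without the 2 cows farthest from the median of the LT level r was 0.67. In stressed cows r was 0.58 (permutation p = 0.020, adjusted 0.050) and rho 0.59 (permutation p = 0.020, adjusted 0.066), with r = 0.65 without the 2 farthest cows. After the mean of each slide was subtracted, r was 0.57 in limited stress cows (adjusted permutation p = 0.068) and 0.33 in stressed cows, where the adjusted permutation p of 0.35 no longer passed. On unscaled signals r in the stressed cows was 0.50 and did not pass either (adjusted permutation p = 0.12).

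PFKFB3 varied together in stressed cows (r = 0.58, permutation p = 0.012, adjusted 0.039; rho = 0.60, permutation p = 0.015, adjusted 0.066), with r = 0.40 without the 2 farthest cows and 0.60 after the slide means were subtracted (adjusted permutation p = 0.043). With control-feature scaling this r was 0.12 and on unscaled signals 0.50, and neither passed. In limited stress cows r was 0.15 (permutation p = 0.57, adjusted 0.57) and rho 0.13 (permutation p = 0.64, adjusted 0.64), and r was -0.27 without the 2 farthest cows. There the LT level ran over 2.93 units and some cows with the lowest LT levels had high ST levels. GPAM gave r = 0.49 in limited stress cows (permutation p = 0.050, adjusted 0.099; rho = 0.44, permutation p = 0.092, adjusted 0.18), which fell to 0.26 without the 2 farthest cows and rests on them. After the slide means were subtracted it was 0.54 (adjusted permutation p = 0.068). In stressed cows GPAM gave r = 0.20 (permutation p = 0.46, adjusted 0.51) and rho = 0.15 (permutation p = 0.58, adjusted 0.64), with r = 0.47 without the 2 farthest cows.

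The mean of the SLC25A25 probes gave r = 0.27 in limited stress cows (permutation p = 0.30, adjusted 0.41; rho = 0.28, permutation p = 0.29, adjusted 0.37; r = 0.32 without the 2 farthest cows). In stressed cows it gave r = 0.48 (permutation p = 0.061, adjusted 0.10; rho = 0.36, permutation p = 0.18, adjusted 0.29), and 0.19 without the 2 farthest cows. PDPR gave r = 0.67 in limited stress cows (permutation p = 4.1e-03, adjusted 0.020; rho = 0.53, permutation p = 0.038, adjusted 0.095) and 0.45 without the 2 farthest cows. After the slide means were subtracted it was 0.70 (adjusted permutation p = 0.020). This relation did not pass when the arrays were scaled in any of the other ways that were tried (r between 0.22 and 0.32). In stressed cows PDPR gave r = 0.26 (permutation p = 0.33, adjusted 0.41; rho = 0.29, permutation p = 0.27, adjusted 0.37), and 0.28 without the 2 farthest cows.

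**Figure D4:**
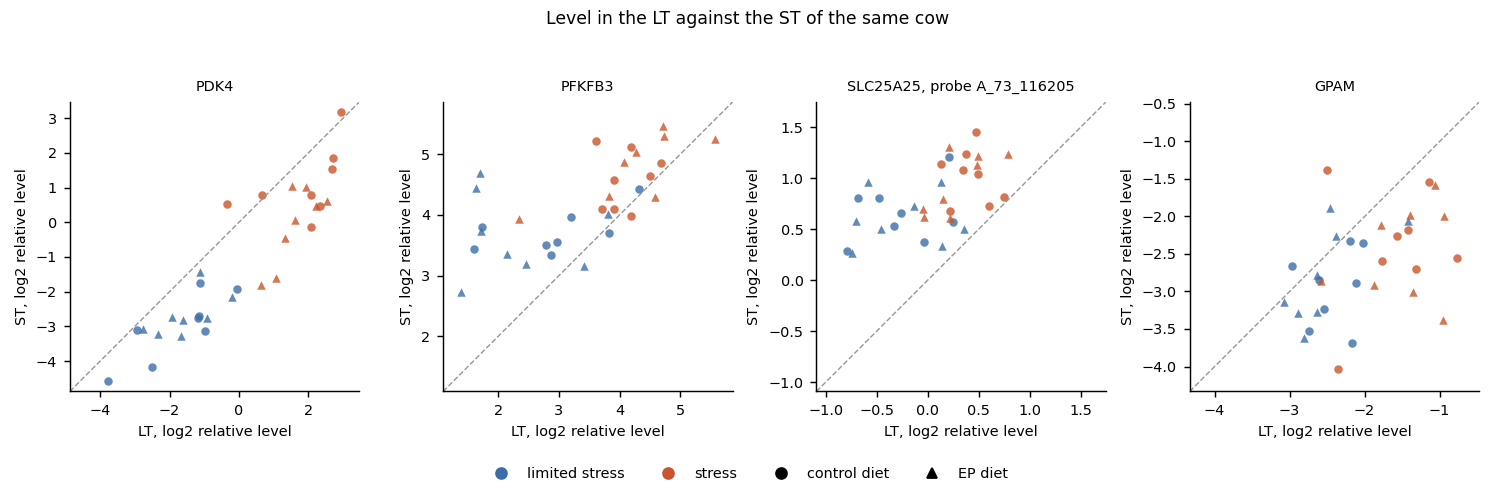
Level in the LT (horizontal axis) against the ST (vertical axis) of the same cow, both as log2 signal relative to the 75th percentile, for PDK4, PFKFB3, the first SLC25A25 probe and GPAM in 32 cows; blue is limited stress, orange stress, circles the control diet, triangles the EP diet, and the dashed line marks equal levels. PDK4 points lie mostly under the line, with r = 0.76 in limited stress cows and 0.58 in stressed cows. The relation in stressed cows did not pass after slide means were subtracted. All points of the first SLC25A25 probe lie above the line.

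Cows high in PDK4 were not shown to be high in the other members. Of 16 relations of PDK4 with another member within a muscle and a stress group (16 cows each), 0 passed after adjustment over the 16. The closest was SLC25A25 in the LT of limited stress cows, with r = 0.58 (permutation p = 0.019, adjusted 0.31) and rho = 0.64 (permutation p = 8.6e-03, adjusted 0.14), and r = 0.51 without the 2 farthest cows. With PFKFB3 r lay between -0.28 and 0.038, and with GPAM between 0.048 and 0.43. When the arrays were scaled to the control features instead, 6 of the 16 passed. That median was only 1.73 to 6.36 signal units per array.

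Among 1841 other gene names measured in both muscles, the 5 whose level was most like that of PDK4 over the 32 arrays of each muscle, by the lower of both Pearson correlations, were CEBPD, GADD45A, SLC16A6, PGF and GABARAPL1. For CEBPD the correlation was 0.90 (LT) and 0.87 (ST). CEBPD is a transcription factor known to respond to glucocorticoids. For GADD45A, a stress-inducible growth arrest gene, it was 0.80 and 0.83. For SLC16A6, a monocarboxylate transporter family member, it was 0.77 and 0.74. These arrays hold both stress groups, which differ in all of these genes, and arrays of a muscle share slides, so the values describe likeness and carry no test. CEBPD was higher in stressed cows in the LT by 1.68 (SE 0.22) and in the ST by 1.36 (SE 0.23), given as a description because likeness to PDK4 over both stress groups chose it, and 16 of 16 stressed cows exceeded the limited stress median in each muscle.

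After the mean of each stress and diet group was subtracted, CEBPD was again the gene most like PDK4, with correlations of 0.68 (LT) and 0.69 (ST). RHOT2 (0.52 and 0.66), DGKH (0.52 and 0.53), BTG1 (0.51 and 0.57) and LTBP2 (0.49 and 0.47) followed. By the same measure the other members gave 0.0063 and -0.19 (PFKFB3), 0.40 and -0.18 (SLC25A25), 0.27 and 0.17 (GPAM) and 0.33 and 0.38 (PDPR). Between the muscles, CEBPD went the other way from PDK4, with LT minus ST at -0.42 (SE 0.16; adjusted p = 0.025 in limma). It was -0.23 with control-feature scaling and -0.29 unscaled, where it did not pass, nor did it with the slide or scan day as a block.

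**Figure D5:**
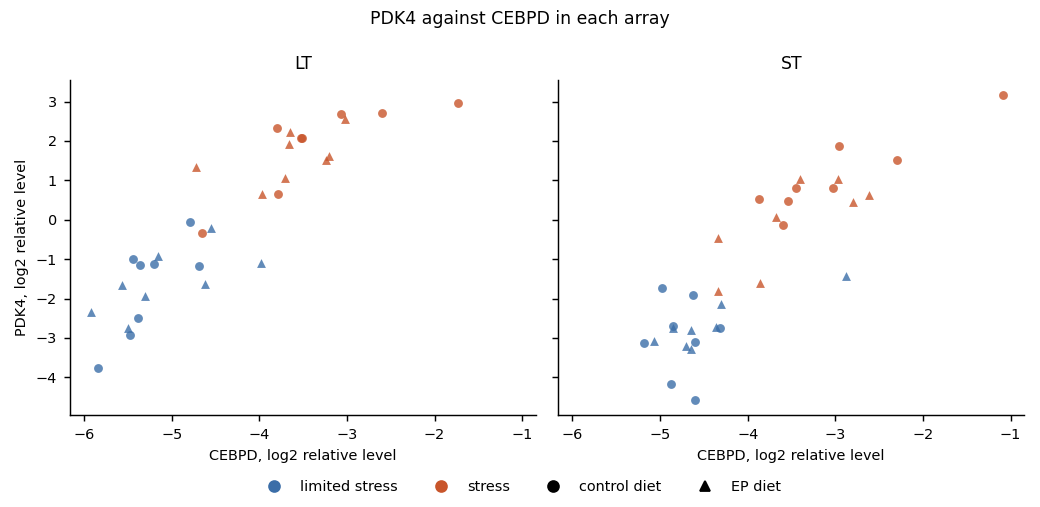
PDK4 (vertical axis) against CEBPD (horizontal axis), both as log2 signal relative to the 75th percentile, in the 32 arrays of the LT (left) and the ST (right); blue is limited stress, orange stress, circles the control diet, triangles the EP diet. The levels rise together over all arrays (r = 0.90 in the LT and 0.87 in the ST) and also within the groups (0.68 and 0.69 after the group means are subtracted).

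No other measured gene on the lists of these pathways was called for stress. Under other scalings, filters or blocks at most 1 gene of a pathway list was called. Genes that were not listed or not measured are not covered. Of the pyruvate dehydrogenase complex and its other regulators, 6 of 14 listed genes were measured, and 0 passed for stress in either muscle, with median differences of 0.061 (LT) and -0.017 (ST) beside -0.054 and -0.062 over all transcripts. PDK2, another kinase of the complex, gave 0.036 (LT) and 0.093 (ST), and PDK3 gave 0.034 and -0.024. Glycolysis and its regulators had 17 measured genes and 0 calls in each muscle (medians -0.087 and -0.080). Glycerolipid and fatty acid synthesis had 10 genes and 0 calls (medians -0.15 and -0.13), fatty acid uptake and oxidation 14 genes and 0 calls (0.045 and 0.021), and the mitochondrial carriers 6 genes and 0 calls (-0.022 and 0.011). Of all transcripts, 3.73% were called for stress by limma (LT) and 3.6% (ST).

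Of the glucocorticoid and FOXO responsive genes only CEBPD, DUSP1 and MT2A were measured, of 24 listed. CEBPD and DUSP1, a MAP kinase phosphatase, were called higher in stressed cows in both muscles. For CEBPD the call is a description, for the reason given above. DUSP1 was higher in the LT by 0.34 (SE 0.11, adjusted p = 0.099 in limma) and in the ST by 0.38 (SE 0.11, adjusted p = 0.050 in limma). Instead of 2 genes of this list, 1 was called in the LT on unscaled signals, without the filter on dim probes or with control-feature scaling, and 1 in the ST with control-feature scaling or with the slide or scan day as a block. MT2A, a metallothionein, gave 0.58 and 0.41 (adjusted p = 0.24 and 0.38 in limma).

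Between the muscles 51.7% of all transcripts were called (21.9% higher and 29.9% lower in the LT), and the lists lay near that share, with 4 of 6 genes called in the pyruvate dehydrogenase list, 9 of 17 in glycolysis, 7 of 14 in fatty acid uptake and oxidation and 5 of 10 in glycerolipid synthesis. The pyruvate dehydrogenase subunits DLAT and DLD were higher in the LT by 0.33 and 0.29 (adjusted p = 6.0e-05 and 2.9e-04 in limma), also under every other setting tried. PDK2 and PDK3 were at -0.12 and -0.16, which turned to 0.064 and 0.032 with control-feature scaling and to 0.0039 and -0.028 unscaled, so that their direction depended on the scaling. In the glycolysis list 8 of 17 genes were lower in the LT and LDHB was higher (0.52), but with control-feature scaling and unscaled only 1 was lower. The muscle glucose transporter SLC2A4 (-0.51) was lower under every setting tried, whereas TPI1 (-0.16) and ENO3 (-0.15) turned to 0.075 and 0.052 with control-feature scaling. Of 14 genes of fatty acid uptake and oxidation 5 were higher, among them HADHA (0.50) and ETFA (0.42), both of mitochondrial fat oxidation, and 2 were lower, among them UCP3 (-0.44), which did not pass with control-feature scaling. In glycerolipid and fatty acid synthesis, MOGAT1 (0.74) and AGPAT4 (0.45) were higher, as GPAM was, and 3 genes were lower, among them SCD (-0.56) and SREBF1 (-0.30), of which none passed with control-feature scaling.

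Fibre type markers moved with the muscle too. All 7 fast fibre markers measured were lower in the LT, but only PVALB, a calcium buffer of fast fibres (-4.11), was so with control-feature scaling and unscaled, and 5 of the other 6 were above 0 with control-feature scaling. Of 7 slow fibre markers, 5 were higher in the LT, among them TNNT1 (0.91) and TNNC1 (0.50), and MYH7 was lower (-0.12), which turned to 0.10 with control-feature scaling and 0.018 unscaled. In limited stress cows the summed signal of the slow fibre markers, as multiples of the 75th percentile, was 248 to 351 in the LT and 192 to 336 in the ST, and that of the fast fibre markers 394 to 537 and 460 to 581, over the 12 to 16 arrays of a group in which every marker was measured. The ranges overlapped, and the part of fibre type in the muscle differences of the members was not tested.

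Neither fibre list had a call for stress in either muscle (0 of 7 each). Of 6 fat cell markers measured, 0 were called for stress in the LT, where GPAM was higher, and 1 (PCK1, -0.81, adjusted p = 0.077 in limma) was lower in the ST. Their summed signal in the LT was 1.08 to 5.97 in limited stress cows and 0.847 to 5.97 in stressed cows. The part of fat cells in the GPAM difference was not tested. LEP was not well above background on enough arrays to be measured. Connective tissue (5 markers), endothelium (2) and immune cell markers (1) had 0 calls for stress. Of the blood cell markers only HBB was measured, in the LT alone and near background.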

How the data were processed

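The authors scanned 64 single-colour arrays, and per the file headers Agilent's Feature Extraction 10.1 produced the deposited intensities, background-subtracted and detrended, with surrogate values near background. The deposited flag columns (another kind of value, 0 or 1) marked spots well above background, saturated or uneven. A deposited table held the same intensities, unscaled. Uneven spots were left out, spots of a probe were averaged, and the log2 intensity was taken relative to the 75th percentile of each array. A probe was tested in a muscle when at least 11 of its 32 arrays had it well above background, which left 10441 in the LT, 10305 in the ST and 10254 in both.

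Using limma 3.58.1 (with statmod 1.5.0, under R 4.3.3), models were fitted to 4 groups of stress and diet in each muscle and 8 groups over both. The main fit over both muscles had no block on the cow, which was an alternative. Tests were two-sided with Benjamini-Hochberg adjustment over all probes, and a probe was called at an adjusted p under 0.1, the threshold of the study. Transcripts needed calls in the same direction for at least 80% of their probes. The limma fit for stress in the LT was also run on simulated probe values, without this rule for transcripts. Correlations used 100000 permutations (scipy 1.17.1).

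The members, the gene lists and the tests were chosen with earlier results of these data known. All member probes were named, with list genes called for stress (up to 6 a list) or muscle (up to 4 a list, of which some are given as counts) and the 5 genes most like PDK4 by each of 2 measures. The study scaled each array to its control probes, but here those features were near background and served as an alternative. The period of slaughter used in the study is not in the labels and was not a covariate. The muscles of a cow were paired by its number in the labels. The correlation of their deviations from the group means over 10254 probes had a median of 0.43 and was above 0.1 in 32 of 32 cows. It was highest with the other muscle of the same cow in 25 of 32 cows. The number of arrays limits the precision of every value. The authors named limma in their processing notes; its version is not given in the sources used here.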

Additional observations from a re-analysis of the deposited data

Results flagged for a closer look

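In 3 of the 48 sets of 8 cows that a member probe and a group formed, a single cow lay far from the others: its gap to the nearest cow, as a share of the whole range of the group, passed Dixon's 95% critical value. Chance alone would mark about 1 set in 20. A cow was high for the second SLC25A25 probe in the ST of limited stress cows on the control diet, at -3.09 with the next cow at -3.93. Another cow was high for GPAM in the LT of limited stress cows on the EP diet, at -1.43 with the next cow at -2.38. A further cow was low for PDPR in the ST of limited stress cows on the control diet, at -8.60 with the next cow at -8.12. No cow was marked for PDK4 or PFKFB3.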

How the results depend on the processing

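Scaling, background correction, filters and blocks were changed in turn. Of 358 member differences under such an alternative, 330 kept their direction and their side of the threshold, or moved by less than the spread between cows where there was no test (5 of these changed sign). Another 6, all of PDPR, no longer passed, and 22 tested values changed sign, none of which passed with or without the alternative.

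For PDPR, LT minus ST was -0.045 with control-feature scaling (arrays divided by the median of their control features), -0.11 unscaled, -0.0084 with normexp and quantile normalisation, -0.24 with the slide or the scan day as a block and -0.23 with the custom probe set, and none of these passed. With the replicate block on the cow all 6 member probes passed for the muscle (PDPR adjusted p = 0.013 in limma) and 15 of all probes passed for the difference of stress differences between muscles. For diet in the ST, 5 of all probes passed with the slide or the scan day as a block. For stress in the LT, 457 probes passed, and 113 did under control-feature scaling. In the ST, 436 passed, against 111 with that scaling, 234 unscaled, 150 with the slide and 219 with the scan day as a block. This scaling moved the median of all probes for LT minus ST from -0.019 to 0.17, and for stress in the LT from -0.048 to -0.23. Unscaled values moved that for LT minus ST to 0.11 and that for stress in the ST from -0.062 to 0.087. Of the same-cow relations 5 passed, 2 under control-feature scaling and 1 unscaled, and of the relations of PDK4 with the other members 0 passed, and 6 under control-feature scaling. The cause of these changes was not tested. PDPR was not tested under the stricter filter, since too few arrays had it well above background.

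The sign changes were these. With control-feature scaling, EP minus control diet in the LT was 0.13 for PDK4, 0.13 and 0.11 for the SLC25A25 probes and 0.20 for GPAM, and in the ST 0.011 and 0.059 for the SLC25A25 probes. The difference of stress differences between diets was -0.079 for GPAM (LT) and 0.075 for the first SLC25A25 probe (ST), and that between muscles -0.25 for PDK4. Unscaled, the ST diet difference was -0.0058 for PFKFB3, -0.059 for GPAM and -0.027 for PDPR, and the difference of PDK4 stress differences between muscles -0.087. With normexp and quantile normalisation, the diet difference was 0.0070 for GPAM (LT) and -0.0010 for PDPR (ST), and the ST stress difference between diets 0.073 and -0.0027 for the SLC25A25 probes. For the second SLC25A25 probe that value was -0.13 with the slide blocked and -0.066 with the scan day blocked, and the ST diet difference of GPAM was then -0.058 and -0.041. The custom set of PDPR gave a LT diet difference of -0.21.

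Of the correlations, that between the muscles was -0.12 for PFKFB3 in limited stress cows and -0.11 for SLC25A25 in stressed cows with control-feature scaling. That of PDK4 with PFKFB3 was 0.12 (LT, limited stress), 0.23 (ST, limited stress) and 0.18 (ST, stressed) with control-feature scaling, and 0.080, 0.051 and 0.096 after slide means were subtracted. That with SLC25A25 in the ST was 0.34 (limited stress) and 0.44 (stressed) with control-feature scaling, 0.049 and 0.17 after slide means were subtracted and 0.22 (stressed) unscaled. That with PDPR was -0.13 (ST, limited stress) with normexp and quantile normalisation.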
